A study of Mus musculus with 2 samples.

Results

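Group 2 innate lymphoid cells (ILC2) of the mouse aorta were taken from single-cell RNA counts by a rule on unique molecular identifiers (UMIs, 1 per captured RNA molecule). A cell with at least 200 genes and at most 10% mitochondrial UMIs was taken as an ILC2 when the UMIs of Il5, Il13, Il1rl1, Gata3, Calca and Csf2 summed to 3 or more. It also had to hold no UMI of Cd3d, Cd3e, Cd3g, Ncr1 or Klrb1c, and at most 2 UMIs each of a B cell set (Cd79a, Cd79b, Ms4a1), of C1q (C1qa, C1qb, C1qc) and of Lyz2. The rule found 98 ILC2 among 2957 kept cells, or 3.31%. The cells were thus chosen by their measured UMIs of these genes, so the levels of the 6 rule genes in them are given as a description.

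The cells came from atherosclerotic aortas of ApoE-/- mice on the C57BL6/J strain, which lack apolipoprotein E whichever diet they were fed. 1 group was fed chow and the other a diet labelled WD. For each diet, viable CD45+ leukocytes of 10 aortas were pooled into 1 droplet library, so diet and library cannot be told apart and neither has a replicate. The sources used here give neither age nor time on the diet. The chow library gave 896 kept cells with a median of 3747.5 UMIs and the WD library 2061 with 3191. All differences below therefore compare 2 libraries and not 2 diets. Intervals are exact 95% intervals and cover counting error only, and they are too narrow for genes whose UMIs come in bursts from few cells.

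ILC2 are tissue lymphocytes without antigen receptors that depend on the transcription factors GATA3 and RORα. They respond to alarmins such as IL-33, whose receptor chain ST2 is the product of Il1rl1, and release type 2 cytokines. IL-5 sustains eosinophils and B-1 cells, IL-13 acts on macrophages and epithelia, and GM-CSF, encoded by Csf2, acts on myeloid cells.

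Type 2 cytokines were read from a small region of chromosome 11. In the GRCm38 (mm10) annotation Il13 lies at chr11:53631324-53634702 on the minus strand, Il5 at chr11:53720794-53725106 on the plus strand, and Il4 next to Il13. The 250 bases before the RefSeq (GRCm38.p6) start of Il5, Il13 and Calca are shown because these 3 rule genes mark the cells and GATA3, itself a rule gene, binds the letters GATA. Capitals mark GATA or, for the other strand, TATC. The windows are chr11:53720544-53720793 (plus strand), chr11:53634703-53634952 (minus strand) and chr7:114636358-114636607 (minus strand), each written 5′ to 3′ along its gene.
Il5: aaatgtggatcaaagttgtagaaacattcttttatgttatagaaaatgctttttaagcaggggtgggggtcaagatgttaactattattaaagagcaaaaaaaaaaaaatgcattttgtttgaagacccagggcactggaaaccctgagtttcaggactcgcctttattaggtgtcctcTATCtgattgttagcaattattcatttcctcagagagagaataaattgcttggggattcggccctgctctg
Il13: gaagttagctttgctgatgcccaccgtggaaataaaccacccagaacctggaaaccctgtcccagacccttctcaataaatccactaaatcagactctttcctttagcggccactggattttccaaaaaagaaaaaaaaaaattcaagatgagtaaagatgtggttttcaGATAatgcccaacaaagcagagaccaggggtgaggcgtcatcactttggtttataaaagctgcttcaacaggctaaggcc
Calca: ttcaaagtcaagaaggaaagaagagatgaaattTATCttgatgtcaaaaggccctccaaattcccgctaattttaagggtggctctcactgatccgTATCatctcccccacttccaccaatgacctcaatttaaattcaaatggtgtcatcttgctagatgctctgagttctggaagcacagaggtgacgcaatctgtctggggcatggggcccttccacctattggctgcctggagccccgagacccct
Il5 held 1 match, 71 bases before the start, Il13 held 1 match, 80 bases before it, and Calca held 2. Of 32851 RefSeq promoter windows of the same length, 53.6% held at least 1 match, so these letters do not set the 3 genes apart. The Csf2 window is not printed because its RefSeq start lies away from the start in the annotation used for coordinates.

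ILC2 made up 3.01% of the chow library (27 of 896 cells, 2.00 to 4.35%) and 3.44% of the WD library (71 of 2061 cells, 2.70 to 4.33%). The intervals overlap, and with 1 library per diet a difference in share was not tested. The chow ILC2 held 2243 to 5461 UMIs (median 3044) and the WD ILC2 1418 to 8386 (median 2908). Summed, these are 89457 and 210901 UMIs, so a single chow UMI weighs more than a single WD UMI.

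Most cells that the rule left out failed its Cd3 limit. Of the cells with 3 or more rule UMIs, 39 chow and 37 WD cells were left out, and 31 and 28 of these failed on Cd3 alone. Among them, 7 chow and 10 WD cells held exactly 1 Cd3 UMI, from Cd3d or Cd3g and never from Cd3e, and no Cd4 or Cd5 UMI. Of these single-UMI cells, 1 chow cell held 4 Cd6 UMIs and 1 WD cell held 1 Cd28 UMI. A further 20 and 16 cells held 4 or more Cd3 UMIs, with Cd4 UMIs in 8 and 4 of them and Cd28 UMIs in 17 and 5. The single-UMI cells bear on several results below and are returned to there. Around the limit of 3 rule UMIs there were few cells. It was met exactly by 4 chow and 3 WD ILC2, and 1 cell of each library stopped at 2.

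An unsupervised grouping of all cells placed nearly all ILC2 in 1 cluster. The rule genes and Cd3 genes were not left out of that grouping, so it is not an independent check of the rule. The cluster of 42 chow and 94 WD cells held all 27 chow ILC2 and 70 of 71 WD ILC2, which made up 71.3% of its cells. Its other 15 and 24 cells were left out mostly for a Cd3 UMI (15 and 13 cells) or for fewer than 3 rule UMIs (1 and 10 cells). Scrublet called 3 chow and 2 WD cells as doublets, none an ILC2. Those shares, 0.335% and 0.0970%, lie below the rates set for the loading (0.717% and 1.65%), so unseen doublets remain possible.

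Genes that the rule did not use were read next. Among them, Arg1 and Ccl1 were given as markers of these cells with earlier results of these data known. Their shares are thus a description and not an independent check of the label. Arginase 1, encoded by Arg1 and known in tissue ILC2, had at least 1 UMI in 15 of 27 chow ILC2 (55.6%) and 43 of 71 WD ILC2 (60.6%). It was found in 2.02% and 0.481% of T cells and in 0% and 0.202% of B cells, the latter with median depths of 2823.5 and 2459.5 UMIs. Ccl1, a chemokine ligand of CCR8, was found in 37.0% and 33.8% of ILC2 and in 0.810% and 0.361% of T cells. Both genes were thus found in a far larger share of ILC2 than of T cells. Of the other genes listed as ILC2 markers, some were present, such as Klrg1, Rora and Areg, and others were nearly absent. Il17rb had 0 UMIs in chow and 1 in WD ILC2, Nmur1 had 0 in both, and Ptgdr2 had none. Hpgds was found in 3.70% of chow and 5.63% of WD ILC2, against 37.1% and 36.5% of macrophages. Of all Arg1 UMIs of kept cells, ILC2 held 63.3% in the chow library and 77.9% in the WD library. For Ccl1 these shares were 61.8% and 60.4%.

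Of 1651 genes with 20 or more UMIs in ILC2, 265 (16.1%) were at least 2-fold higher in ILC2 than in all other kept cells in both libraries, and 58 (3.51%) at least 8-fold. In the other direction 50 (3.03%) were at least 2-fold lower. Outside the rule genes, Ccdc184 led this order, with log2 ratios over other kept cells of 6.54 in chow and 6.45 in WD, followed by Arg1, Rab27b, Ccl1, Dach2, Acbd7, Ccr8, Areg, Rnf128, Hs3st1, Nrgn and Gm20186. Klrg1, an inhibitory lectin-like receptor used to mark ILC2, Kit, the stem cell factor receptor, Rora, Furin, Hilpda and Ramp3 were also among the leading 20. Rora, the ILC2 lineage factor, stood at 1252 CPM (UMIs scaled to the summed total of the cells) in chow ILC2 and 1802 CPM in WD ILC2, against 103 and 95.2 CPM in T cells. Furin, a protease that trims precursor proteins, stood at 2839 and 3144 CPM, against 104 and 60.7 CPM in T cells. Hs3st1, an enzyme of heparan sulfate, was shared with another lineage. It was found in 63.0% and 69.0% of ILC2 and also in 36.6% and 31.4% of B cells.

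**Figure D1:**
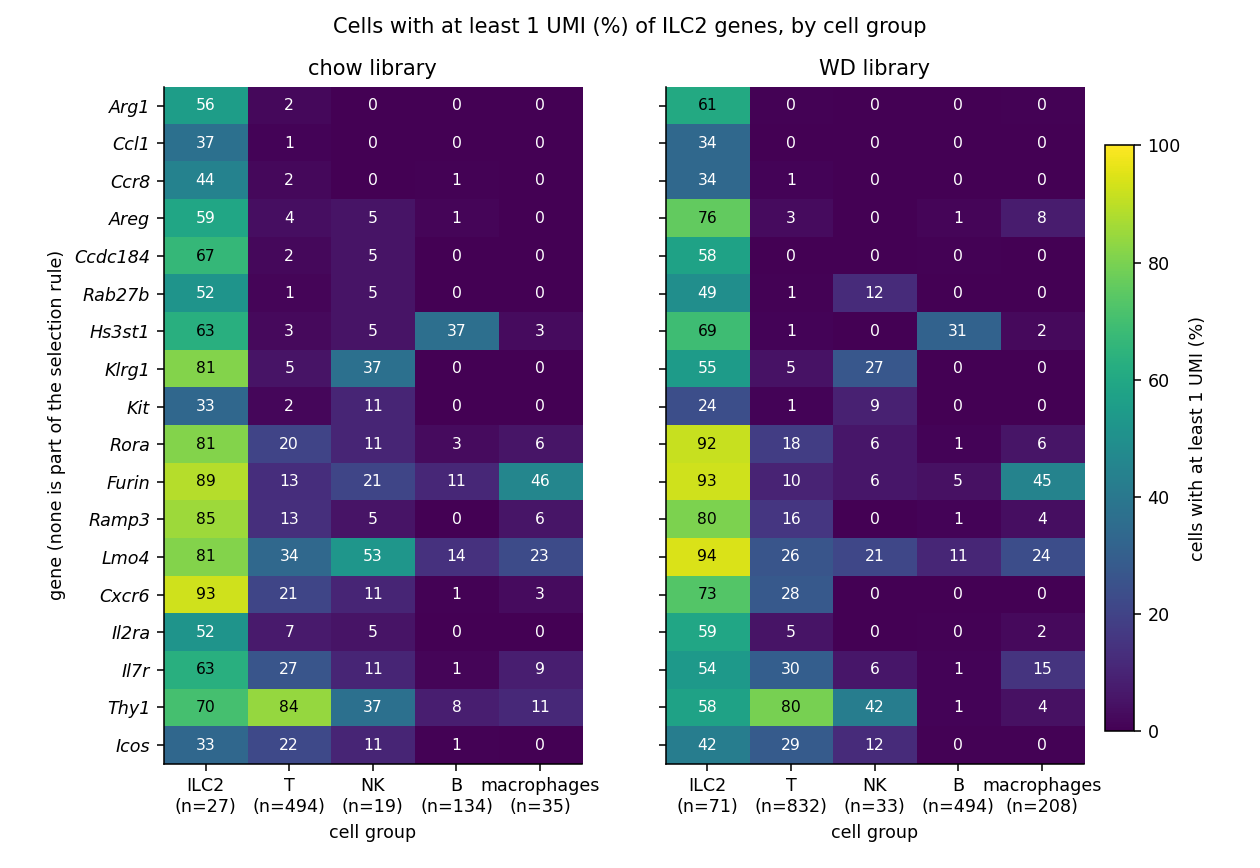
Share of cells with at least 1 UMI (%) for 18 genes outside the rule (rows) in ILC2, T cells, NK cells, B cells and macrophages (columns) of the chow and the WD library, at each cell's own depth. The ILC2 column is the brightest for every gene but Thy1, which T cells also hold, and Arg1, Ccl1 and Ccr8 are near 0 in the other 4 groups.

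Surface markers placed the cells near other lymphocytes. Il7r, the IL-7 receptor chain, was found in 63.0% of chow and 53.5% of WD ILC2, and Thy1 in 70.4% and 57.7%. Klrg1 was found in 22 of 27 chow ILC2 (81.5%) and 39 of 71 WD ILC2 (54.9%). The intervals of these Klrg1 shares, 61.9 to 93.7% and 42.7 to 66.8%, overlapped. When every cell was thinned to 1000 UMIs, the Klrg1 shares were 29.6% and 26.8%. Thinning removed most Klrg1 detections in both libraries, so it cannot decide on the wider gap, which was not tested. Of the 13 measured surface markers, 11 were lower in WD, with a median log2 ratio of WD over chow of -0.28 against 0.0037 over all measured genes. None reached 2-fold. The largest differences with an interval that leaves out 1 were those of Cd53, a tetraspanin (827 and 536 CPM, ratio 0.479 to 0.880), and Ly6e (log2 ratio -0.28).

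Markers of other cell types were read as sums over lists. Among 12 mast cell and basophil genes, chow ILC2 held 3 UMIs with 9 genes at 0, and WD ILC2 held 417 UMIs with 2 genes at 0, of which 410 came from 1 cell. MHC class II genes had UMIs in 25 chow ILC2 (592 CPM) and 35 WD ILC2 (1906 CPM), and 327 of the 402 WD UMIs came from 1 cell. The NK and ILC1 list of 14 genes, with Ncr1 and Klrb1c barred by the rule, gave 2 and 15 UMIs, with 12 genes at 0 in each library. The 12 genes listed for group 3 innate lymphoid cells and lymphoid tissue inducer cells had UMIs in 21 chow ILC2 (107 UMIs, 1196 CPM) and 63 WD ILC2 (257 UMIs, 1219 CPM), above T cells at 287 and 346 CPM, with 7 and 8 genes at 0. The measured ones were Tmem176a (42 and 100 UMIs), Tmem176b (53 and 130) and Tnfsf11 (8 and 26), and the IL-23 receptor gene Il23r had 0 UMIs. Cd4 and Cd5 also had 0 UMIs, but Skap1 (32 and 65 UMIs), Cd27 (28 and 56) and Lat (12 and 49), signalling or costimulatory genes that T cells share, were present. Summed T cell markers outside Cd3 had UMIs in 27 chow and 64 WD ILC2 and reached 939 CPM in chow ILC2 and 1000.5 CPM in WD ILC2, against 4338 and 3861 CPM in T cells. T cell receptor constant regions were not analysed here.

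Of the 6 rule genes, Il5 had the widest gap between the libraries. Chow ILC2 held 48 Il5 UMIs in 13 of 27 cells, and WD ILC2 held 403 in 36 of 71 cells. The shares of cells, 48.1% and 50.7%, were close, but the cells that held it differed in content. The median among them was 1 UMI in chow and 6 in WD, and the highest cell held 19 and 67. The levels were 537 CPM (396 to 711) and 1911 CPM (1729 to 2107), a log2 ratio of 1.83 (ratio 2.64 to 4.91). The 3 highest cells held 62.5% of chow and 42.4% of WD Il5 UMIs.

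This Il5 gap depended on the Cd3 limit. The 7 chow cells with 1 Cd3 UMI held 71 Il5 UMIs, 56 of them in 1 cell, which is more than all 27 chow ILC2 together. With those cells and the 10 WD cells included, Il5 stood at 119 and 459 UMIs, or 1027 and 1938 CPM, and the log2 ratio was 0.91 (ratio 1.54 to 2.33). Over the whole cluster it was 0.65. The direction was the same in all 3 sets, while the size was not. Outside ILC2 the other kept cells held 130 chow and 123 WD Il5 UMIs, with a log2 ratio of -1.004. The limit of 0 Cd3 UMIs thus placed 27.0% of the chow library's Il5 UMIs and 76.6% of the WD library's inside ILC2.

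Il13 gave no gap beyond counting error. It had 75 UMIs in 8 chow ILC2 and 145 in 20 WD ILC2, or 838 CPM (659 to 1051) and 688 CPM (580 to 809), with a log2 ratio of -0.28 (ratio 0.616 to 1.10). The cells with Il13 held 1 to 22 UMIs in chow (median 8) and 1 to 27 in WD (median 3). ILC2 held 55.1% of the chow library's Il13 UMIs and 90.1% of the WD library's.

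Csf2 was higher in the chow ILC2. It had 203 UMIs in 15 of 27 chow cells and 285 in 38 of 71 WD cells, with a median of 12 and 5 UMIs among cells that held it. The levels were 2269 CPM (1968 to 2604) and 1351 CPM (1199 to 1518), and the log2 ratio was -0.75 (ratio 0.496 to 0.717). With 1 Cd3 UMI allowed it was -0.41 (ratio 0.637 to 0.888). The shares of cells with Csf2, 55.6% and 53.5%, were close, and 10 or more UMIs were held by 8 of 27 chow cells and 8 of 71 WD cells.

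Calca, which encodes the neuropeptide CGRP and its relative calcitonin, had no stable direction. It was found in 9 of 27 chow ILC2 (82 UMIs) and 35 of 71 WD ILC2 (251 UMIs), at 917 CPM (729 to 1138) and 1190 CPM (1047 to 1347), a log2 ratio of 0.38. With 1 Cd3 UMI allowed the ratio turned to -0.19, and over the whole cluster it was -0.60. Of the chow cells with 1 Cd3 UMI, 1 held 53 Calca UMIs. In T cells Calca stood at 37.6 and 13.7 CPM.

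The other 2 rule genes gave no gap beyond counting error. Il1rl1 had 41 and 99 UMIs, or 458 and 469 CPM (log2 ratio 0.03, ratio 0.705 to 1.51). Gata3 was found in all 27 chow ILC2 and in 64 of 71 WD ILC2, at 1051 and 1304 CPM (log2 ratio 0.31, ratio 0.978 to 1.59). Both intervals include 1.

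**Figure D2:**
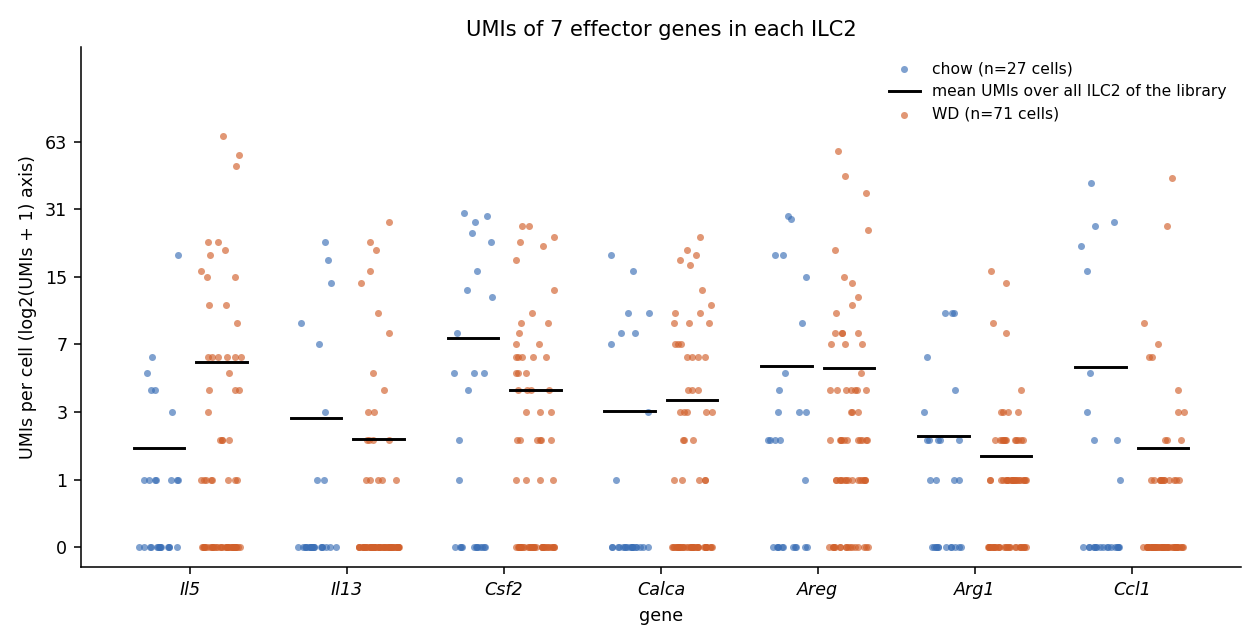
UMIs per cell (vertical axis, spaced as log2(UMIs + 1)) of 7 effector genes in each of the 27 chow (blue) and 71 WD (orange) ILC2. Points are cells, spread sideways for visibility, and black bars are the means over all ILC2 of a library. Most cells of either library lie at 0 or a few UMIs for each gene, and the means rest on the upper cells, such as the 3 WD cells with 49, 55 and 67 Il5 UMIs.

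Among effector genes outside the rule, Areg, encoding the epidermal growth factor family ligand amphiregulin, was abundant in both libraries. It had 146 UMIs in 16 chow cells and 377 in 54 WD cells, at 1632 CPM (1378 to 1919) and 1788 CPM (1612 to 1977), with a log2 ratio of 0.13. ILC2 held 49.2% of the chow library's and 53.6% of the WD library's Areg UMIs, and T cells stood at 36.7 and 29.0 CPM. Arg1 had 57 and 109 UMIs, at 637 and 517 CPM (log2 ratio -0.30, ratio 0.584 to 1.14). The intervals of both genes include 1.

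Ccl1 was lower in WD ILC2. It had 144 UMIs in 10 of 27 chow cells and 125 in 24 of 71 WD cells, at 1610 CPM (1358 to 1895) and 593 CPM (493 to 706), a log2 ratio of -1.44 (ratio 0.287 to 0.471). The cells that held it had a median of 10.5 UMIs in chow and 1.5 in WD, and the 3 highest held 65.3% and 62.4% of the UMIs. With 1 Cd3 UMI allowed the log2 ratio was -0.71, and 1 such WD cell held 45 Ccl1 UMIs. Ccr8, its receptor, was carried by ILC2 themselves, at 190 and 137 CPM against 5.61 and 3.36 CPM in T cells. The 17 Ccr8 UMIs of the 27 chow ILC2 equalled the 17 of all other kept chow cells.

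Cxcl2, a neutrophil chemokine, had 34 UMIs in 14 chow ILC2 and 316 in 30 WD ILC2, a log2 ratio of 1.97. The other kept cells held 5138 chow and 12535 WD UMIs of it, and its log2 ratio of ILC2 over these cells was -1.59 in chow and 0.03 in WD. With 1 Cd3 UMI allowed the ratio was 0.78, and over the whole cluster -0.18.

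**Figure D3:**
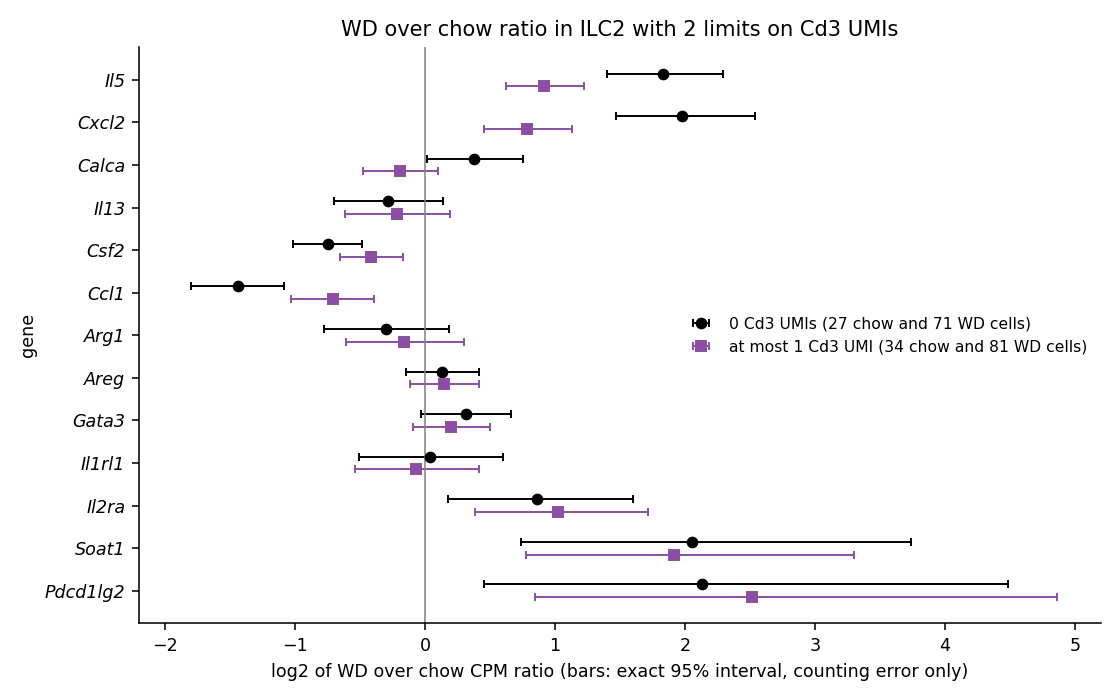
Log2 of the WD over chow CPM ratio (horizontal axis) of 13 genes with ILC2 as ruled, with 0 Cd3 UMIs (black circles, 27 chow and 71 WD cells), and with cells of at most 1 Cd3 UMI added (purple squares, 34 and 81 cells). Bars are exact 95% intervals for counting error. Il5, Cxcl2, Csf2 and Ccl1 move toward 0, Calca crosses it, and Il13, Arg1, Areg, Gata3, Il1rl1, Il2ra, Soat1 and Pdcd1lg2 move by less than their intervals.

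Of the 31 cytokines and growth factors listed, 23 had a UMI in ILC2 and 11 were measured with 20 or more UMIs, of which 6 were higher and 5 lower in WD (median log2 ratio 0.13). Il5 alone of these passed 2-fold, where 102 of 1651 measured genes (6.18%) were at least 2-fold higher in WD ILC2 and 54 (3.27%) at least 2-fold lower. Il9, Il10, Il22, Il17a and Ifng had 0 UMIs, which by a floor of 3 counts allows a share with a UMI of up to 3.06% of the 98 cells. Il4 had 3 UMIs in 3 chow cells and 9 in 6 WD cells, Il6 4 and 12, and Il2 4 and 14. Tgfb1 stood at 570 and 545 CPM, and Bmp7 had 8 and 15 UMIs. Tnfsf8, encoding CD30 ligand, had 17 UMIs in 2 chow cells, 10 of them in 1 cell, and 0 in WD ILC2. This lies below the minimum of 20 UMIs for a measured gene. The shares of cells, 7.41% (0.910 to 24.3%) and 0% (0 to 5.06%), had overlapping intervals, so no difference was read.

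The effector genes were spread over the cells in different mixtures. Of Il5, Il13, Csf2 and Calca, 5 chow and 9 WD ILC2 held none and entered by Gata3 and Il1rl1 alone, 7 and 22 held 1, 8 and 17 held 2, 6 and 19 held 3, and 1 and 4 held all 4. The 5 and 9 cells without any of them still held Klrg1 in 5 and 6 cells, Rora in 4 and 7, and Arg1 in 3 and 8. Il13 was found in 20 of 49 cells with Il5 (40.8%) and in 8 of 49 without (16.3%). Calca was found in 59.2% of cells with Il5 and in 30.6% of cells without. For Csf2 these shares were 55.1% and 53.1%, for Areg 73.5% and 69.4%, and for Arg1 61.2% and 57.1%. Median depth was 2984 UMIs in cells with Il5 and 2963 in cells without. Within the libraries, Il13 was found in 46.2% and 14.3% of chow cells with and without Il5, and in 38.9% and 17.1% of such WD cells. Since a cell needs 3 rule UMIs to enter, pairs of rule genes are not free of the rule.

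Receptors for alarmins were uneven. Beside Il1rl1, the IL-25 receptor gene Il17rb had 0 and 1 UMIs, the IL-18 receptor gene Il18r1 2 and 1, and the TSLP receptor gene Crlf2 8 and 13. Nmur1, the receptor for neuromedin U, had 0 UMIs in all 98 cells. Il2ra, the high-affinity chain of the IL-2 receptor, was found in 14 of 27 chow ILC2 (22 UMIs) and 42 of 71 WD ILC2 (94 UMIs), at 246 CPM (154 to 372) and 446 CPM (360 to 545). It was higher in WD ILC2, with a log2 ratio of 0.85 (ratio 1.13 to 3.03), or 1.02 with 1 Cd3 UMI allowed. In the other kept cells its log2 ratio was -0.77. Il4ra, the shared chain for IL-4 and IL-13, was lower, with 24 UMIs in chow and 27 in WD and 268 and 128 CPM (log2 ratio -1.05, ratio 0.265 to 0.864). Ifngr1, for interferon gamma, was also lower, at 850 and 488 CPM (log2 ratio -0.79, ratio 0.423 to 0.784), while Il4ra and Ifngr1 were level in other kept cells (-0.01 and -0.02). Ifngr2, the other chain of the interferon gamma receptor, went the other way, with a log2 ratio of 0.98 and an interval that includes 1. Of the 10 measured genes in this receptor list, 4 were higher and 6 lower, and Il4ra alone passed 2-fold.

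Neuropeptide and lipid mediator receptors included genes for parts of the CGRP receptor family. Ramp3, a receptor-modifying membrane protein, was found in 85.2% and 80.3% of ILC2, at 1286 and 1190 CPM against 101 and 109 CPM in T cells. Ramp1 stood at 358 and 289 CPM, against 276 and 219 CPM in T cells. Calcrl, the receptor these proteins modify, had 1 and 2 UMIs, which is under the floor of 3 UMIs in each library and was not read as expression. Ltb4r1, a leukotriene B4 receptor, had 24 and 35 UMIs, Gpr65, a proton sensor, 28 and 61, and Ptgir, the prostacyclin receptor, 10 and 16. Ptgdr2, the prostaglandin D2 receptor CRTH2, had 0 UMIs. Of the 6 measured genes in this list, 5 were lower in WD and none passed 2-fold.

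Costimulatory and inhibitory receptors included Tnfrsf18, encoding GITR, in 88.9% and 73.2% of ILC2, and Icos in 33.3% and 42.3%. Pdcd1lg2, which encodes the PD-1 ligand PD-L2, had 3 UMIs in 3 chow cells and 31 in 19 WD cells, at 33.5 CPM (6.92 to 98.0) and 147 CPM (99.9 to 209). It was higher in WD, with a log2 ratio of 2.03 (ratio 1.37 to 22.4), or 2.39 with 1 Cd3 UMI allowed. In other kept cells the log2 ratio was 0.29. The chow count equals the floor of 3 UMIs. The shares of ILC2 with Pdcd1lg2, 11.1% (2.35 to 29.2%) and 26.8% (16.9 to 38.6%), had overlapping intervals. B cells held Pdcd1lg2 too, at 78.8 CPM in chow and 86.3 CPM in WD. Cd274, for PD-L1, was at 10 and 6 UMIs, below the minimum for a call.

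Of 18 measured transcription factors of the lineage, 11 were higher and 7 lower (median log2 ratio 0.17), and none passed 2-fold. Rora (log2 ratio 0.52, ratio 1.16 to 1.79) and Junb (5947 and 8592 CPM, log2 ratio 0.53) were higher in WD. Bhlhe40, which supports cytokine production in lymphocytes, was lower, with 60 UMIs in 21 chow cells and 88 in 39 WD cells (671 and 417 CPM, log2 ratio -0.68, ratio 0.443 to 0.879). Id2, shared by all innate lymphoid cells, stood at 1710 and 1731 CPM, and Lmo4 at 1811 and 2143 CPM. Pparg had 7 and 13 UMIs.

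Tissue residency genes were present in both libraries. Cxcr6, the receptor for CXCL16, was found in 92.6% and 73.2% of ILC2, at 1319 and 982 CPM (log2 ratio -0.43, ratio 0.591 to 0.941). Ccr2 was found in 81.5% and 83.1%. Of the 9 measured genes of this list, 5 were higher and 4 lower. Itgae and Itga1 had 0 UMIs. Of the 18 cell cycle genes, Mki67, Rrm2, Birc5, Cdk1 and Ccnb1 had 0 UMIs, and Tubb5 (40 and 55 UMIs) and Hmgb2 (45 and 79), which are not limited to dividing cells, were the 2 measured.

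Of the 20 measured immediate early and stress genes, 16 were higher in WD ILC2 (median log2 ratio 0.35, against 0.12 for the same genes in other kept cells), where 829 of all 1651 measured genes were higher. A rise of at least 2-fold was found for 4 of them, against 6.18% of all measured genes. These 4 were Jun (28 and 161 UMIs, log2 ratio 1.28), Egr1 (7 and 40, 1.24), Atf3 (6 and 33, 1.18) and Hsp90aa1 (43 and 231, 1.18). A single WD cell held 85 of the 161 Jun UMIs, and without the highest cell of each library the log2 ratio of Jun was 0.55. It was 0.25 without the ILC2 that held mast cell or basophil markers. The log2 ratio of Egr1 fell to 0.22 without the ILC2 that held markers of other cell types, that of Atf3 to 0.18 in cells thinned to 1000 UMIs, and that of Hsp90aa1 to 0.17 with a rule minimum of 5 UMIs. Such genes are induced by tissue digestion as well as by signalling, and their part in the other differences was not tested. The NF-κB response list was even, with 8 of 16 higher and a median of -0.01.

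Among lipid genes, Soat1, the enzyme that esterifies cholesterol for storage, differed most. It had 5 UMIs in 5 of 27 chow ILC2 and 49 in 32 of 71 WD ILC2, at 55.9 CPM (18.1 to 130) and 232 CPM (172 to 307). No cell held more than 4, and the log2 ratio was 1.99 (ratio 1.67 to 13.4), or 1.87 with 1 Cd3 UMI allowed. In other kept cells it was -0.05. Plin2, a lipid droplet coat protein, had 6 and 32 UMIs (log2 ratio 1.14, ratio 0.933 to 6.62). Dgat1, for triglyceride synthesis, was found in 14 and 34 cells at 581 and 446 CPM, well above other kept cells (log2 ratios 3.69 and 3.54). Hilpda, a lipid droplet protein induced by hypoxia, was found in 81.5% and 85.9% of ILC2 at 1800 and 2082 CPM. Of the 26 genes of this list 6 were measured, with 3 higher and 3 lower. Fabp4, Cd36, Scd1 and Lpl had 0 UMIs.

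**Figure D4:**
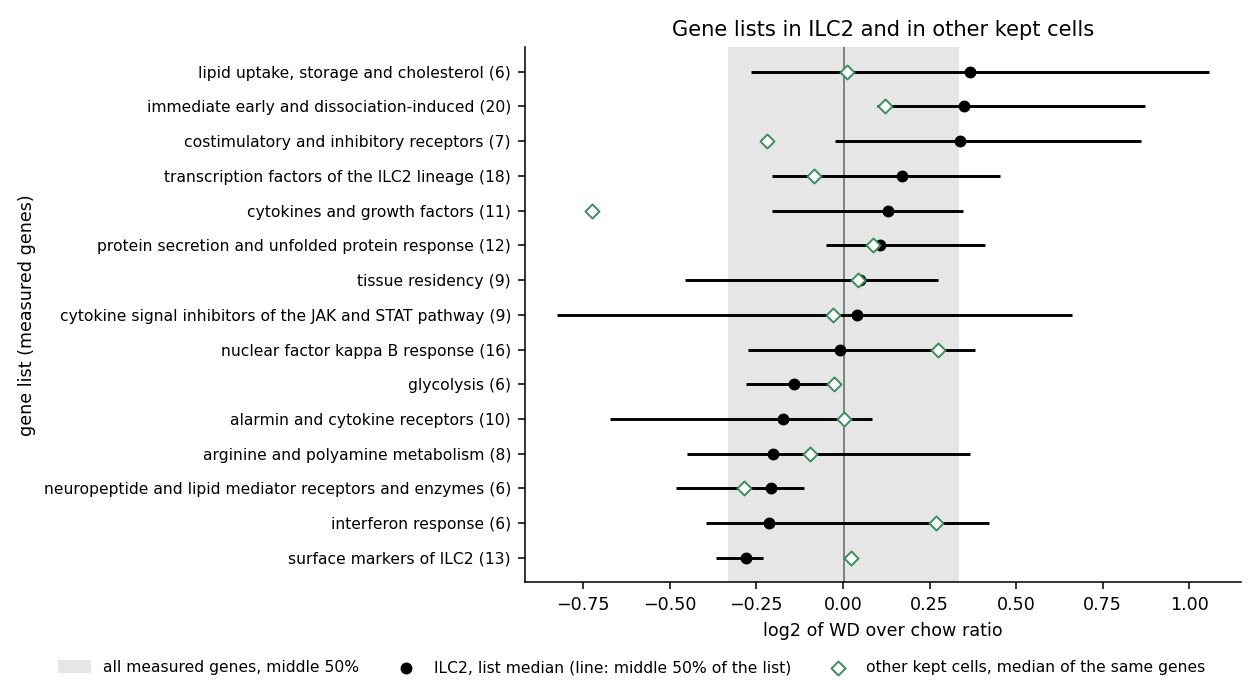
Median log2 WD over chow ratio (horizontal axis) of 15 gene lists with at least 5 measured genes in ILC2 (the rule genes and the mast cell and basophil list, with a median of 6.86 and 410 of 417 WD UMIs from 1 cell, are not drawn) (black points, lines span the middle 50% of the list) and of the same genes in other kept cells (green diamonds). The grey band is the middle 50% of all 1651 measured genes. The lipid, immediate early and costimulatory lists lie just above the band, the other 12 ILC2 medians lie within it, and surface markers are lowest. In cells thinned to 1000 UMIs (not drawn) the lipid and costimulatory medians were negative.

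The remaining differences of size were mostly in genes with few UMIs. Of the 102 genes at least 2-fold higher in WD ILC2, 47 (2.85% of the 1651 measured genes) had an interval that leaves out 1. In other kept cells 50 of the 102 were higher too, 5 of them at least 2-fold. Of the 54 lower genes, 36 (2.18% of the 1651) had such an interval. In other kept cells 40 of the 54 were lower too, 11 of them at least 2-fold. The share of all measured genes that were higher or lower in other kept cells is not given here. These overlaps were thus not read as shared or particular change. The high end held Sf1, a splicing factor, with 0 UMIs in chow and 22 in 18 WD cells (at least 3.11-fold higher), Naa15 (1 and 27 UMIs in 1 and 21 cells, ratio 1.89 to 469) and Mast4 (1 and 24 UMIs in 1 and 18 cells, ratio 1.66 to 419). These UMIs were spread over many cells, but over the whole cluster the log2 ratio of Sf1 was 0.87 and that of Mast4 0.71, against 5.01 and 3.01 in ILC2. That of Naa15 was 3.18 in ILC2, and it was 2.17 with 1 Cd3 UMI allowed. Cpa3 (0 and 75 UMIs), Hdc (1 and 35) and Ccl2 (1 and 23) were not, since 74, 30 and 22 of the WD UMIs came from a single cell each. Cpa3 and Hdc are mast cell and basophil genes. Cd74, the MHC class II chaperone, had 21 and 213 UMIs (log2 ratio 2.09). Without the highest cell of each library its ratio was -0.12.

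At the low end, Acod1, the itaconate enzyme of activated myeloid cells, had 19 UMIs in chow, 17 of them in 1 cell, and 3 in WD (log2 ratio -3.62). Wdr83os (14 and 9 UMIs), Lamtor5 (12 and 8), Pold4 (18 and 15) and Cyth1 (11 and 9) were spread over 7 or more chow cells. The log2 ratio of Lamtor5 went from -1.74 to -0.52 over the whole cluster, and that of Cyth1 from -1.46 to -0.30 in cells thinned to 1000 UMIs. The weakest values under any setting were -1.18 for Wdr83os and -1.30 for Pold4. Socs2, a STAT5-induced signal inhibitor, was lower, with 23 and 25 UMIs (log2 ratio -1.10, ratio 0.251 to 0.850). Its list of JAK and STAT pathway genes was mixed. Of 9 measured genes, 5 were higher and 4 lower in WD ILC2 (median log2 ratio 0.04). Pim1 of that list was higher (0.37), also with an interval that leaves out 1. Gm42418 (34 and 25) and Wdr89 (121 and 103) were lower too, and they were lower in the other kept cells as well.

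**Figure D5:**
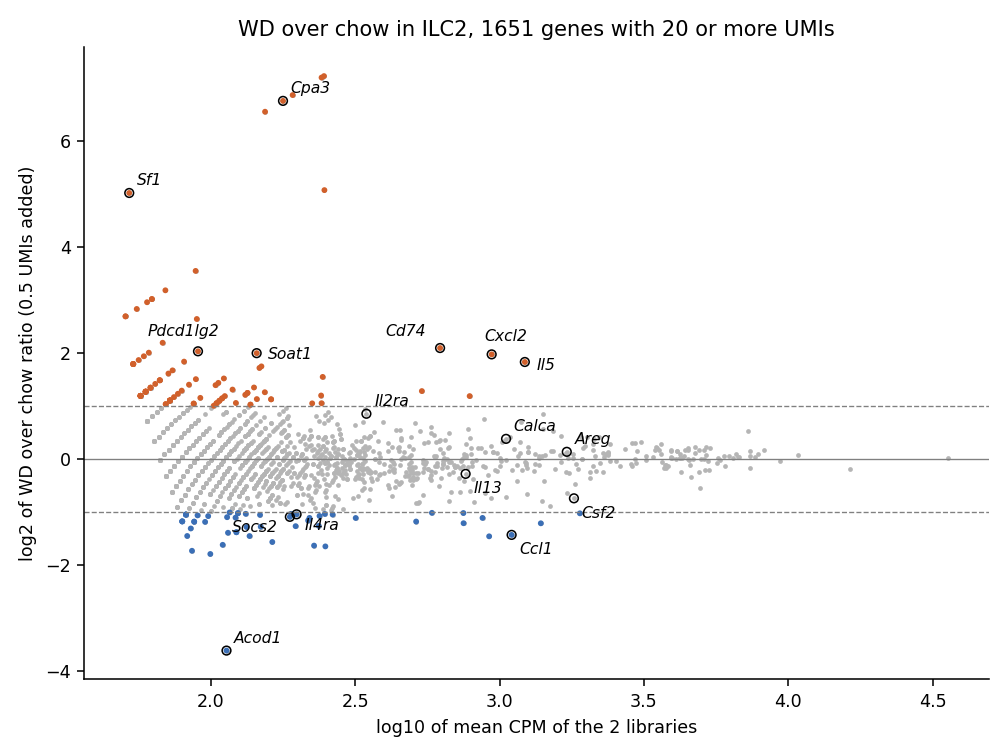
Log2 WD over chow ratio in ILC2 (vertical axis, 0.5 UMIs added) against the log10 of the mean CPM (horizontal axis) for 1651 genes. Orange points are at least 2-fold higher and blue points at least 2-fold lower in WD, dashed lines mark 2-fold, and circled genes are named in the text. Few of the more abundant genes pass the lines, among them Il5, Cxcl2 and Ccl1.

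The receptors for ILC2 products were read in the other aortic leukocytes. Csf2ra, the GM-CSF receptor chain, stood at 309 CPM in chow and 284 CPM in WD macrophages, against 13.8 and 10.1 CPM in T cells. Csf2rb, the chain shared with IL-5, stood at 72.4 and 90.9 CPM in macrophages. Il5ra had 7 chow and 23 WD UMIs over all other kept cells, with 2.02 and 9.66 CPM in B cells and 0 and 0.874 CPM in macrophages. Il13ra1 stood at 38.6 and 29.7 CPM in macrophages. The alarmin genes Il33 and Il25 had 0 UMIs in any kept cell of these CD45+ libraries, and Tslp had 2 and 14.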

How the data were processed

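Single-cell RNA of CD45+ aortic cells was read from 2 libraries, 1 per diet, each from 10 pooled aortas. The authors deposited whole-number UMI counts per gene and barcode, not normalized. Per the submitters' processing notes, Cell Ranger, STAR and the mm10 build were used, with versions not given in the sources used here. The kit was a 10x 3′ kit, per the labels' protocols, so a count is of RNA 3′ ends. The files held 909 and 2077 barcodes (4608033 and 8782901 UMIs) and 27998 genes, 27645 of them matched by gene ID. Symbols are the mouse symbols of these IDs. Barcodes with under 200 genes (2 and 0) or over 10% mitochondrial UMIs (11 and 16) were removed, and Scrublet calls were removed as an alternative only. The libraries shared 3 barcodes, none of an ILC2.

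The members, gene lists and comparisons were chosen with earlier results of these data known. UMIs were summed over the ILC2 of a library and scaled to their total (CPM). Log2 ratios had 0.5 UMIs added, scaled by library total, and ratios carry exact conditional 95% intervals. Genes with 20 or more UMIs over both libraries were measured, and 2-fold was the size named. With 1 library per diet no test was made. CPM intervals are exact Poisson and shares exact Clopper-Pearson. Of 31 lists, 8 genes were not analysed here. Comparison cells outside ILC2 were T cells (2 or more Cd3 UMIs, and at most 2 of the B cell set, of C1q and of Lyz2), NK cells (an Ncr1 or Klrb1c UMI, no Cd3, the same limits), B cells (3 or more UMIs of the B cell set, no Cd3) and macrophages (3 or more of C1q, no Cd3). Named genes were those of the rule, the 20 highest over other cells, the 10 highest and 10 lowest WD over chow ratios whose interval leaves out 1 and whose sign holds without the top cell, and measured list members, with some list members named for counts at or near 0. Python 3.11.15, numpy 2.4.6, scipy 1.17.1, pandas 2.3.3 and scanpy 1.11.5 were used. Alternatives covered the rule minimum, the Cd3 limit, mitochondrial limit, doublet calls, whole Leiden clusters, cells with markers of other types, thinning to 1000 UMIs, the UMI minimum, added UMIs, scaling, the top cell and means over cells.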

Additional observations from a re-analysis of the deposited data

How the results depend on the processing

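Of 2391 log2 ratios recomputed for 200 named genes under 12 other settings, 2313 stayed within counting error of the value given, 64 moved further and 14, all of genes whose interval leaves out 1, changed sign. Over all of these genes 127 of the 2391 changed sign. Of 397 under 2 settings chosen after seeing the data (at most 1 Cd3 UMI allowed, and 2 chow and 4 WD ILC2 with markers of other cell types removed), 378, 13 and 6 did, and 38 changed sign in all. Among the 12 settings, the UMI minimums of 10 and 50 and the removal of doublet calls, none an ILC2, could not change a named gene's ratio. The count that stayed within counting error includes these unchanged values and so overstates stability. No paired analysis was possible because each diet has 1 library. With whole clusters the ILC2 share was 4.69% in chow and 4.56% in WD, and with every cell thinned to 1000 UMIs before the rule it was 2.52% in WD. The counts of genes at least 2-fold higher and lower in WD ILC2 followed the UMI minimum, at 325 and 192 of 3001 genes with 10 or more UMIs and 23 and 19 of 706 with 50 or more. In thinned cells they were 35 and 32 of 605, and without the top cell of each gene 163 genes were higher. Scaling by the median ratio moved the median of all genes by less than 0.1. A rule minimum of 5 UMIs turned Ccl2 to -0.88 and Fos to -0.45. Whole clusters turned Calca to -0.60 and Cxcl2 to -0.18, and allowing 1 Cd3 UMI turned Calca to -0.19. Tnfrsf9, at 1.14 with an interval that includes 1, was -0.86 over whole clusters and -0.90 with 1 Cd3 UMI allowed. Removing cells with mast cell markers turned Ccl2 to -0.81 and Hdc to -0.15, and removing cells with markers of any other type turned them to -0.83 and -0.16. That removal also turned Cd74 to -0.72, H2-Aa to -1.31 and H2-Ab1 to -2.34, and the median of the MHC class II list from 1.47 to -0.72. Thinning turned H2-Aa to -1.28, H2-Ab1 to -0.87 and Traf1 to -0.023. It also turned the median of the lipid list from 0.37 to -0.56 and that of the costimulatory list from 0.34 to -0.24. The median of the immediate early list was 0.14 or more under every setting. Without the top cell, Cd74 was -0.12, H2-Aa -1.46 and H2-Ab1 -1.94, and as means over cells H2-Aa was -0.017 and H2-Ab1 -0.44. Except where the top cell or named cells were taken out, the cause was not tested. The single library per diet limits every comparison, and depth sets the floor of 3 UMIs, at 33.5 CPM in the 27 chow and 14.2 CPM in the 71 WD ILC2.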

Other observations

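The cells kept out of the ILC2 set by Cd3 fell along a range. Those with 4 or more Cd3 UMIs held 30 Il5 UMIs in chow and 0 in WD, 71 and 24 Calca UMIs, 56 and 41 Gata3 UMIs, and Themis, a gene of T cell development, in 9 and 4 cells. Those with exactly 1 Cd3 UMI held Gata3 in 7 of 7 chow and 10 of 10 WD cells, Areg in 5 and 7, Ccdc184 in 5 and 6, and Hs3st1 in 5 and 7. They held Themis in none, Cd6 in 1 chow cell and Cd28 in 1 WD cell. Their median depths were 3431 and 2580.5 UMIs.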
